A study of Mus musculus with 23 samples.

Results

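Interferon-induced genes are the genes that cells switch on after type I, type II or type III interferon, and 36 of them were followed here by symbol, as a list of names. The gene list of the deposited matrices held 35 of the 36 among its 32285 genes; Mx1 was not on that list and was not analysed here. All 35 matched the mouse GENCODE vM21 annotation (GRCm38) by identifier, with 7 on chromosome 11, 6 on chromosome 5 and 4 on chromosome 19. They were ordered by role: regulators of the response (Isg15, Irf7, Irf9, Usp18), the RNA-binding IFIT family, the OAS family that senses double-stranded RNA, antiviral effectors, nucleic acid sensors, the Schlafen family, and the interferon-inducible GTPases (Gbp2, Gbp4, Gbp7, Igtp, Irgm1, Iigp1) that act at pathogen-containing vacuoles.

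The libraries were single-cell RNA libraries from mice of 2 months labelled C57BL/6, either wild type (WT) or with a tyrosine of STAT5B replaced by phenylalanine (Y665F) or histidine (Y665H). Lymph node (LN) gave 2 WT, 3 Y665F heterozygous (het) and 2 Y665F homozygous (homo) libraries. Spleen gave 1 library for each of WT, Y665H and Y665F, and bone marrow (BM) gave 2 of each. The spleen libraries were made from CD45+ cells of pooled mice. The mutant alleles sit in the germline, made in C57BL/6N zygotes with Cas9 and an oligonucleotide donor for Y665F and with a base editor for Y665H, so every cell of a mouse carries them; the labels give zygosity for LN only. No source states that the replicates of a group came from separate mice, so p-values measure the spread between these libraries. In BM the replicates of each genotype differed in sex by their RNA, as given below. They thus came from different mice there, and the spread between them includes sex. The question was how these genes, as a readout of interferon signalling, differed between genotypes in each class of blood cell.

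STAT5B is a transcription factor that cytokines such as IL-2, IL-7 and GM-CSF activate through JAK kinases. Interferons also signal through JAK kinases: type I and III interferons act on genes with the interferon-stimulated response element (ISRE), and interferon gamma on genes with the gamma-activated sequence (GAS). The letters of the GAS are also those recognised by STAT5. The GTPases are known for a strong response to interferon gamma, and the OAS, IFIT and ISG15 genes for their response to type I interferon.

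Promoters of 6 genes described below are shown, since these elements are the textbook sites of the interferon response; no relation of motifs to the changes was tested. RefSeq promoter windows (GRCm38.p6, 250 bases before to 50 after the start) were at hand for 27 of the 35 genes. The ISRE, searched on both strands as GAAA, any 2 bases and again GAAA, were in 17 of the 27 (63.0%) against 1079 of all 27025 genes in the table (3.99%). The GAS letters TTCNNNGAA, the same on both strands, were in 7 of 27 (25.9%) against 2582 genes (9.55%), 5 genes held both and 8 held neither. Both motifs can share bases, as in Bst2. All 4 GTPases with a window held an ISRE, and 2 of them also held a GAS. Below are the 250 bases before the start of 6 genes, 5′ to 3′ on the gene's strand, with these motifs in capitals: Isg15 (chr4:156200819-156201068, minus), Oas3 (chr5:120777660-120777909, minus), Rsad2 (chr12:26456453-26456702, minus), Gbp2 (chr3:142620413-142620662, plus), Igtp (chr11:58199306-58199555, plus) and Irf7 (chr7:141266425-141266674, minus).
Isg15: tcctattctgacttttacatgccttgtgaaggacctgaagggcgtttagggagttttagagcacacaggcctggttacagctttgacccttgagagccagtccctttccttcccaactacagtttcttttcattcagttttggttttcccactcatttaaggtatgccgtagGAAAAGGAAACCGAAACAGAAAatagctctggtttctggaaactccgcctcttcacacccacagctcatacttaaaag
Oas3: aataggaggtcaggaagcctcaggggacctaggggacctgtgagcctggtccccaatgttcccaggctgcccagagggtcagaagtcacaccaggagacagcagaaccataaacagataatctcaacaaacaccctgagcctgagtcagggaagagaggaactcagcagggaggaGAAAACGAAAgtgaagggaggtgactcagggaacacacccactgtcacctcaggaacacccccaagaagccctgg
Rsad2: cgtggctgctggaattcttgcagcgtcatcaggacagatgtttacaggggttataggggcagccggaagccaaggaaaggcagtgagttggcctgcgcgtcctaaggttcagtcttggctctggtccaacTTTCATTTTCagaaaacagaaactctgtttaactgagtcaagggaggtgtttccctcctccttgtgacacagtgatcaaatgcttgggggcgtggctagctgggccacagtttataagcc
Gbp2: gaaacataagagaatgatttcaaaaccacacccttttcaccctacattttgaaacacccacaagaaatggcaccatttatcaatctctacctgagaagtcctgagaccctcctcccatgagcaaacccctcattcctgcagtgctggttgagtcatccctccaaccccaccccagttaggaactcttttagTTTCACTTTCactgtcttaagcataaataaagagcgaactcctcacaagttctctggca
Igtp: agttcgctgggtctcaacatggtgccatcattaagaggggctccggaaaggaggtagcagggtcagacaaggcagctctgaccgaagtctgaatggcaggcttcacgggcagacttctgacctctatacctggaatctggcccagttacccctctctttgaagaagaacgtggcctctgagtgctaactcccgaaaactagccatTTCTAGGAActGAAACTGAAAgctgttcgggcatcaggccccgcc
Irf7: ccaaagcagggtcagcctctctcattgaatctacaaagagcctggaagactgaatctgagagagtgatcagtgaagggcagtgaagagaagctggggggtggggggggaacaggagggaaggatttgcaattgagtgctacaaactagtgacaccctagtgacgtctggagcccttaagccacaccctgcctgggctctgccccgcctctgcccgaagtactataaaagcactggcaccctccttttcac
The first ISRE base lay 75 bases before the start in Oas3, 120 in Rsad2, 59 in Gbp2 and 34 in Igtp, whose GAS began at 45. Isg15 held 3 overlapping matches at 78, 72 and 66 bases. The Irf7 window held neither motif in these letters.

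Cells were gated into classes by marker genes that include no interferon-induced gene, and unique molecular identifiers (UMIs) were summed per library and class. Levels are counts per 1000000 UMIs of that class (CPM). LN libraries held 2621583 to 16101373 UMIs, spleen 36889328 to 47206322 and BM 16399123 to 55768078. In LN, Y665F het replicate 3 and homo replicate 1 were shallow, with medians of 368 and 395 UMIs per cell barcode against 874 to 3116 in the other 5. In BM, replicate 1 of every genotype carried Xist, which is made by female cells, and replicate 2 carried genes of the Y chromosome instead, so replicate number and sex cannot be told apart there; LN and spleen libraries all carried Y-linked genes. BM Y665F replicate 2 held no barcode under 500 genes, against 8.89% to 13.9% in the other BM libraries. No pair of libraries shared more than 2.87% of the cell barcodes of the smaller one. Labels and methods name different capture kits (3′ and 5′), so levels were compared within a tissue only.

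The most abundant of the genes was Ifi27l2a in LN and spleen, a small interferon-induced membrane protein, with a mean of 482.9 CPM over all LN cells (range 283 to 750 in 7 libraries) and 507 in spleen (463 to 563 in 3). In LN it was followed by Bst2 (tetherin, which holds budding viruses at the membrane) at 208 and Slfn1 at 146, and in spleen by Slfn1 at 165 and Trim30a at 134. In BM, Bst2 led at 170, then Isg15 at 80.4 and Ifi27l2a at 48.0. Slfn1, a Schlafen gene of lymphocytes, was at 0.549 in BM. The levels of several members carry an uncertainty of read assignment, since 68.7% of the 31-base words of Oas1a transcripts also occur in Oas1g, 61.8% of those of Ifit3 in Ifit3b, 54.1% of those of Ifit3b in Ifit3, 19.1% of those of Slfn8 in Slfn9 and 15.9% of those of Igtp in Irgm2.

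In LN CD8 T cells of Y665F homo mice, Oas3 and Irf7 rose and Gbp2 fell against WT. Oas3 (ENSMUSG00000032661, chr5:120753098-120777661, minus strand), which makes the 2-5A signal that activates RNase L, was at 21.8 and 19.6 CPM in WT, 32.0, 26.04 and 33.7 in het, against 53.3 and 45.7 in homo libraries. The 3 groups did not overlap, with het between WT and homo. The log2 fold change of Oas3 in homo was 1.28 ± 0.21 (SE, edgeR adjusted p = 0.0011), and in het 0.63 ± 0.18 (adjusted p = 0.13). Irf7 (ENSMUSG00000025498, chr7:141262706-141266481, minus strand), the regulator that amplifies type I interferon production, was at 72.3 and 68.8 in WT, 81.9, 72.2 and 67.4 among het libraries, against 122.9 and 100.03 in homo. Both homo libraries stood above the other 5 for Irf7, while het overlapped WT, with a log2 fold change of 0.65 ± 0.15 (adjusted p = 0.026) against 0.20 ± 0.13 in het (adjusted p = 0.69). Gbp2 (ENSMUSG00000028270, chr3:142620602-142638008, plus strand), a guanylate-binding protein, was at 60.7 and 76.0 in WT, 45.9, 52.4 and 42.1 in het, against 39.4 and 40.4 in homo, with log2 fold changes of -0.74 ± 0.18 in homo (adjusted p = 0.033) and -0.48 ± 0.13 in het (adjusted p = 0.11). Every mutant library was below both WT libraries for Gbp2. The CD8 T gate did not split naive from memory cells. In spleen, the paper reports relatively more central memory and fewer naive CD8 T cells in Y665F mice. It cautions that some expression differences could stem from T cell subset proportions. The part of subset proportions was not tested here for CD8 T cells of LN or spleen.

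**Figure D1:**
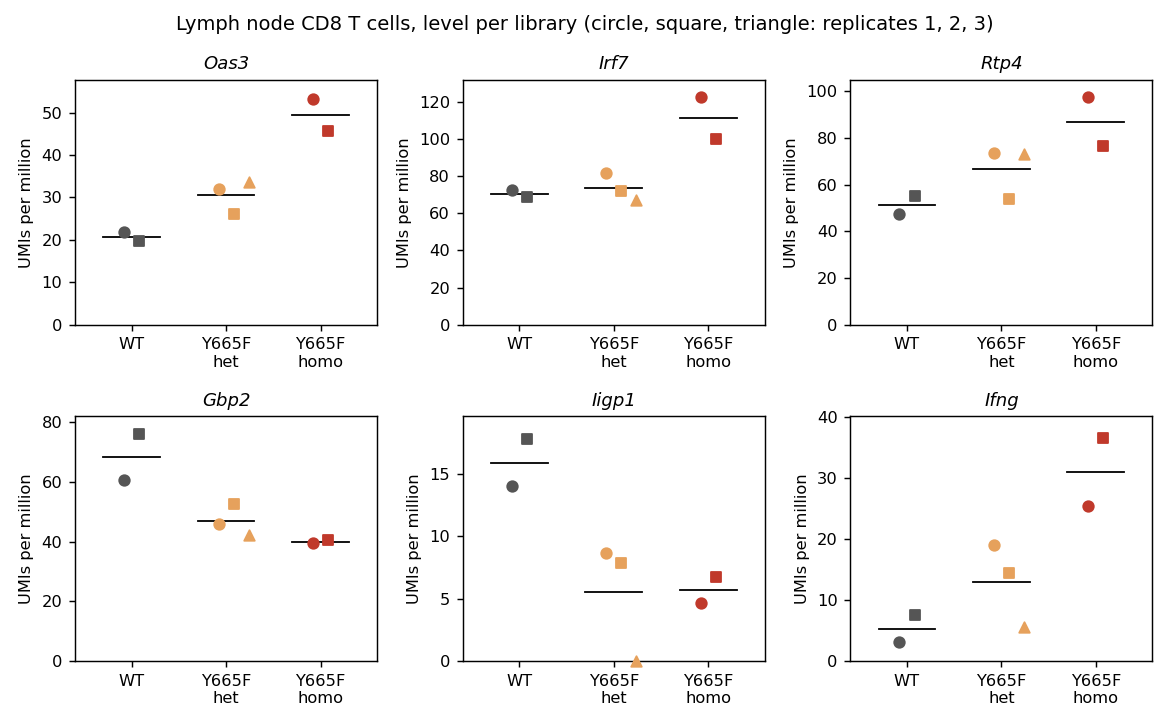
Levels of 6 genes in LN CD8 T cells, in CPM on the y axis, by genotype on the x axis; each point is a library (circle, square and triangle for replicates 1, 2 and 3) and the line is the group mean. Oas3, Irf7 and Rtp4 have their highest points in the homo libraries (Oas3 53.3 and 45.7), Gbp2 and Iigp1 their highest in WT, and Ifng, which is a ligand and not one of the 35 genes, reaches 36.5 in homo.

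These 3 were the genes called of 34 tested in homo against WT, beside 1.68% of all 9329 genes. In het against WT none of the 34 was called by edgeR, beside 0.761% of all genes at the same adjusted threshold, and DESeq2 called 0. At an unadjusted p under 0.05 there were 13, and the share of all genes at that threshold is not given here. The homo result rested on few libraries: none of the 34 was called when WT replicate 2 or homo replicate 2 was left out, 2 without homo replicate 1 and 8 without WT replicate 1. The share of all genes called in those 4 fits was 0.552%, 0.189%, 1.08% and 1.93%. DESeq2 called 1, Oas3, beside 0.493% of all genes. The Irf7 call was also lost without het replicate 2 or homo replicate 1, and that of Gbp2 without het replicate 1 or 2 or homo replicate 1.

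By role, the 34 genes did not move as a block. All 9 antiviral effectors tested had a positive log2 fold change in homo (median 0.64), as did all 4 IFIT genes (median 0.61) and 4 of 5 OAS genes (median 0.42), while all 6 GTPases were negative (median -0.55). The same 6 GTPases were negative in het (median -0.41), where 8 of 9 antiviral effectors were positive (median 0.21). Over the 34 genes the median was 0.25 in homo and 0.11 in het, and over all genes tested it was -0.003 in each. The pairs of comparisons share their WT libraries, so the 2 sets of signs are not independent. Iigp1 (ENSMUSG00000054072, chr18:60376027-60392634, plus strand), an immunity-related GTPase, was at 14.0 and 17.7 in WT, 8.7, 7.8 and 0.0 in het, against 4.6 and 6.7 in homo. Every mutant library was below WT, and the adjusted p was 0.14 for both het (-0.96 ± 0.28) and homo (-1.30 ± 0.41). The shallow libraries, het replicate 3 and homo replicate 1, held few or no UMIs of Iigp1. Gbp4 ran from 119 to 137 in WT, 103 to 111 in het and 90.4 to 91.9 in homo, and Irgm1, which also directs autophagy, from 61.4 to 74.1 in WT, 47.4 to 53.5 in het and 43.8 to 55.6 in homo. On the positive side, Rtp4, a chaperone of receptor proteins, was at 47.4 and 55.1 in WT and 97.4 and 76.5 in homo (log2 fold change 0.70 ± 0.18, adjusted p = 0.059). Ifit3b had the largest homo value, 2.06 ± 0.55 (adjusted p = 0.065), on levels of 2.33 and 2.85 in WT and 13.9 and 10.1 in homo. These Ifit3b levels rested on few UMIs.

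**Figure D2:**
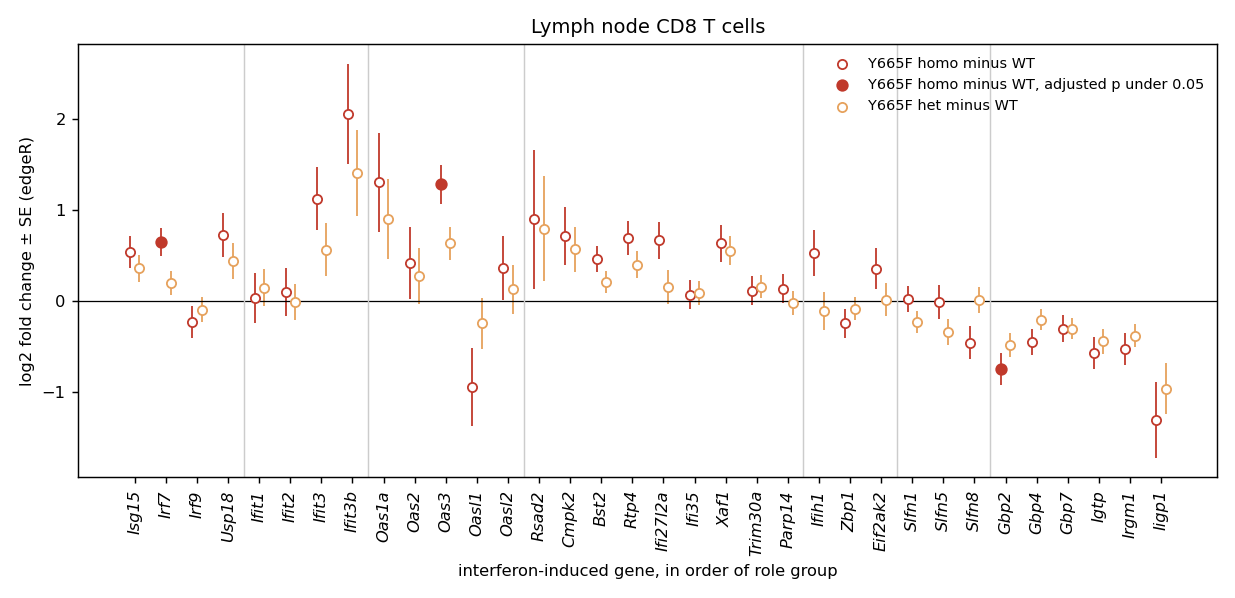
Log2 fold change against WT (y axis, edgeR, bars ± SE) of each of the 34 genes tested in LN CD8 T cells, ordered by role from regulators to GTPases; red is homo, orange is het and filled points passed an adjusted p of 0.05. The 6 GTPases at the right lie below 0 in both genotypes, while the 9 antiviral effectors lie above 0 in homo.

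Of 27 genes of the interferon pathway itself tested in the same cells, 3 passed in homo, beside 1.68% of all genes in that fit. Ifng, the interferon gamma ligand that activated CD8 T cells secrete, was at 3.1 and 7.6 in WT, 19.0, 14.4 and 5.6 in het, against 25.5 and 36.5 in homo. Its log2 fold change was 2.52 ± 0.34 in homo (adjusted p = 0.00012) and 1.501 ± 0.31 in het (adjusted p = 0.019), where it was the only pathway gene called and het replicate 3 lay between the WT libraries. Il10rb, a receptor chain shared by interferon lambda and IL-10, rose in homo (0.82 ± 0.16, adjusted p = 0.0072), and Ifngr2, the signalling chain of the interferon gamma receptor, fell (-1.12 ± 0.26, adjusted p = 0.022; levels 24.9 and 29.8 in WT, 13.9 and 12.0 in homo). The call of Ifng was lost without homo replicate 2 in homo and without either WT library or het replicate 1 in het, and those of Il10rb and Ifngr2 without WT replicate 2 or either homo library. The transducer Stat2 (-0.75 ± 0.24, adjusted p = 0.15) did not pass. Beside these values, summed monocyte markers in the CD8 T gate were at 2.33 to 4.44 CPM in WT, 8.78 to 16.8 in het and 16.2 to 18.3 in homo, and summed natural killer markers at 3.80 to 6.999, 14.1 to 44.9 and 9.27 to 18.8. Of the 5 monocyte markers 2 were above and 1 below both WT libraries in homo, with 2 at 0 there, and 1 was above and 2 below in het. Ccr2, which T cells can also express, carried most of the sum in every library but WT replicate 1. It was at 0.778 and 3.49 in WT, 7.53 to 16.8 in het and 11.6 and 16.4 in homo. Of the 5 natural killer markers 2 were above and 1 below in homo, with 2 at 0, and 4 were above in het. The T markers summed to 3380 to 5414. The part of the other cell types in the result was not tested.

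In LN CD4 T cells, Rtp4 alone was called in homo of 27 genes tested (0.408% of all 6620 genes), at 42.0 and 41.0 in WT, 61.9, 50.1 and 27.4 in het, against 108.6 and 103.4 in homo. The homo libraries stood above the others, with a log2 fold change of 1.38 ± 0.32 (adjusted p = 0.031). In the homo libraries 20 of the 27 were positive (median 0.34) and in het 22 (median 0.27). In het edgeR called none, beside 0.302% of all genes at the same adjusted threshold, and DESeq2 called 0. At an unadjusted p under 0.05 there were 8 in het, and the share of all genes at that threshold is not given here. The 8 antiviral effectors were all positive in homo, and 4 of the 6 GTPases were negative. These counts of positive genes, and the medians of the main fits, are not set against those over all genes. Y665F homo replicate 1 and het replicate 3 held only 78 and 75 CD4 T cells. Monocyte markers in the gate summed to 7.87 to 9.31 CPM in WT, 0 to 3.13 in het and 5.17 to 81.4 in homo. B markers summed to 14.9 to 15.7 in WT, 0 to 7.70 in het and 0 to 7.75 in homo. The part of these cell types in the result was not tested. Rtp4 was not called by DESeq2, nor without WT replicate 2, het replicate 2 or homo replicate 2, while 3 genes were called without WT replicate 1 (0.395% of all genes), 3 without homo replicate 1 (0.46%) and 4 without het replicate 3 (0.738%); the median over the members was -0.48 without homo replicate 2, where that over all genes was -0.39. Of 21 pathway genes, Socs3, an inhibitor of cytokine receptors, fell in het (-1.04 ± 0.25, adjusted p = 0.043), with het libraries at 50.9, 39.8 and 82.3 between the WT values of 36.7 and 136, and was not called without WT replicate 2, het replicate 1 or het replicate 2. The difference between the homo effects in CD8 and CD4 T cells was tested by itself and called none of 32 genes (3 at an unadjusted p under 0.05; DESeq2 was not run for it), beside 0.15% of all genes, so the 2 classes were not shown to differ.

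In LN B cells all 31 genes tested were positive in het and 30 of 31 in homo, yet none passed. The medians were 0.53 and 0.73 on the log2 scale, against 0.003 and -0.017 over all 8983 genes, of which 0.323% were called in het and 0.0223% in homo. At an unadjusted p under 0.05 there were 18 genes in het and 11 in homo, and DESeq2 called 0 in each. The shares of all genes just given are at the adjusted threshold, so they are no background for the unadjusted counts. The summed level of the 35 genes was 1815 CPM in WT replicate 1 and 897 in WT replicate 2, against 2089, 1827 and 2174 in het, against 1764 and 2416 in homo. WT replicate 2 was thus the library that stood apart, and WT replicate 1 lay within the mutant range. Ifi27l2a was at 614 in WT replicate 1 and 220 in WT replicate 2, against 381 to 923 in the 5 mutant libraries. Irf7 was at 66.4 and 25.96 in WT, and at 74.8 to 110.6 in the mutants; Trim30a, a ubiquitin ligase of the response, was at 87.9 and 62.7 against 105.6 to 135.6. Without WT replicate 2, 22 of the 31 were positive in each genotype, the medians were 0.20 and 0.29, and none was called. Without WT replicate 1, 18 were called in het and 10 in homo, with medians of 1.33 and 1.63, beside 1.39% and 0.531% of all genes. Each of these fits has 1 WT library, which is assumed to vary like the other groups. Markers of plasmacytoid dendritic cells, best known for making type I interferon, summed to 29.95 to 36.6 in WT and 26.8 to 41.7 in the mutant libraries, nearly all of it Pacsin1, with Siglech at 0 in 6 of 7 libraries and Klk1 at 0 in all. T markers in the same gate summed to 23.6 to 25.6 in WT, 21.4 to 104 in het and 29.9 to 61.5 in homo, B markers to 8444 to 8894, 9546 to 11404 and 10179 to 12323, and monocyte markers to 466 to 481, 438 to 519.5 and 504 to 524; their part in the result was not tested.

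**Figure D3:**
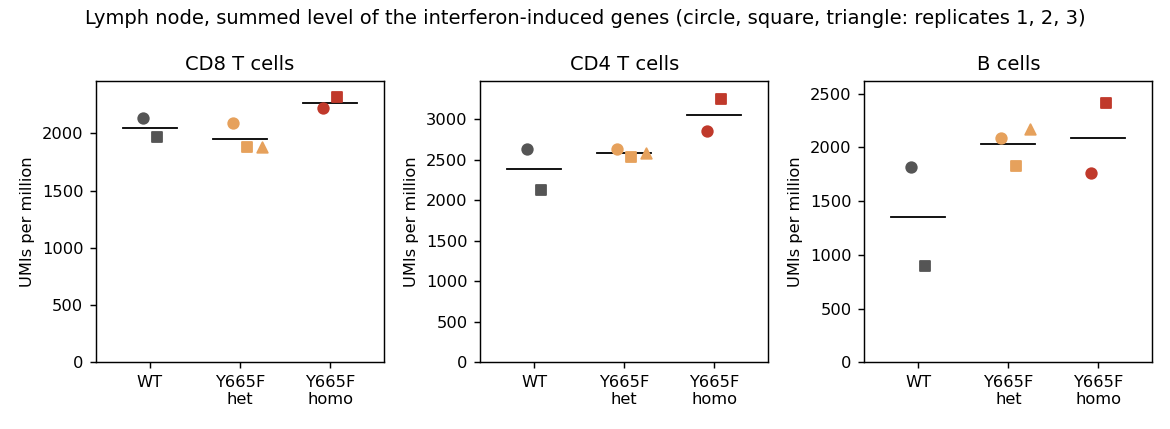
Summed level of the 35 genes in 3 LN classes, in CPM on the y axis by genotype on the x axis; each point is a library and the line is the group mean. In B cells WT replicate 2 lies at 897, below the other 6 libraries, which run from 1764 to 2416, while in CD8 T cells the libraries run from 1879 to 2318.

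The share of cells that carried UMIs of at least 3 of 8 regulator and IFIT genes was counted after each cell was thinned to 1000 UMIs. In LN CD8 T cells it was 1.61% and 0.697% in WT, 1.81% and 1.06% for replicates 1 and 2 of het, and 1.95% (exact 95% interval 1.23% to 2.94%) in homo replicate 2. In CD4 T cells it was 1.59% and 0.668% in WT, 2.34% and 2.02% in het and 3.37% (1.25% to 7.19%) in homo replicate 2. WT replicate 1 lay within the mutant values in CD8 T cells and below them in CD4 T cells, and WT replicate 2 was the lowest in both. In B cells the share was 1.053% and 0.373% in WT, 1.60% and 1.38% in the same het libraries and 0 of 118 cells in homo replicate 2 (exact upper bound 3.08%). In spleen CD8 T cells it was 0.794% in WT, 0.701% in Y665H and 0.283% in Y665F (0.0921% to 0.66%). In the same order it was 0.771%, 0.543% and 0.570% in CD4 T cells, and 0.952%, 0.515% and 0.987% in regulatory T cells. In B cells it was 0.241%, 0.277% and 0.388%, and in neutrophil-gated cells 3.23%, 2.99% and 1.75%. These shares rested on 13, 9 and 5 cells in CD8 T, 10, 8 and 4 in CD4 T and 2, 1 and 3 in regulatory T cells. In B cells they rested on 4, 6 and 3 cells and in neutrophil-gated cells on 3, 22 and 6. The order of the genotypes within a spleen class is thus uncertain. In BM GMP cells the share was 0.102% and 0.0483% in WT, 0.619% and 0.177% in Y665H and 0.236% and 0.0490% in Y665F. Each WT share there rested on 1 cell. In LN T cells of the 5 deeper libraries, the cells so counted held 11.8% to 26.7% of the UMIs of the 8 genes. Without thinning, and over all cells of the class, the LN CD8 T shares were 1.94% and 1.78% in WT, 9.10% and 3.21% in het and 3.17% in homo replicate 2. The highest share was in the deepest library. The 2 shallow libraries had 2 to 31 such cells deep enough per T cell class and are not read here. Intervals cover counting error only, and no class is known to lack these genes, so free RNA cannot be set apart.

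In the spleen each genotype had 1 library, so ratios carry exact 95% intervals for counting error only and no test. In CD8 T cells Iigp1 was at 12.4 CPM in Y665F, 32.2 in WT and 41.2 in Y665H, a ratio to WT of 0.384 (0.320 to 0.458) for Y665F and 1.28 (1.11 to 1.48) for Y665H. Slfn5, a Schlafen gene, was at 33.7, 57.8 and 51.2 in the same order, a Y665F ratio of 0.583 (0.519 to 0.655). Oas3 was at 32.9, 21.2 and 24.3, a ratio of 1.55 (1.33 to 1.81). Iigp1 and Slfn5 thus had their lowest level in Y665F and Oas3 its highest. Of the other members with the largest ratios, Oasl1 was at 0.539, Rsad2 (viperin) at 0.594, Oasl2 at 0.668 and Oas1a at 1.26 of WT in Y665F, and Ifi44 had only 0.264 to 1.36 CPM. Past 2-fold either way in Y665F were 2 of 35 genes beside 7.25% of all genes, and in Y665H 1 of 35 beside 3.77%. The summed level was 0.941 of WT in Y665F (0.924 to 0.959) and 1.10 in Y665H (1.08 to 1.12). The paper compared Y665F with Y665H in bulk RNA of unstimulated splenic T cells. Among the STAT5-bound genes higher in Y665F it reports enriched inflammatory response genes, some of them known to be induced by interferons. That is another measure, on all T cells together. The summed level here was lower in Y665F than in Y665H in CD8 T cells and higher in CD4 T cells. In Y665F the median log2 ratio was -0.13 over the 35 genes and -0.16 over all genes, of which 30.3% were positive, so the median of the 35 lay near that of all genes; in Y665H the medians were 0.14 and 0.004. The all-gene median in Y665F was also below 0 in CD4 T cells (-0.17, against -0.13 over the 35), regulatory T cells (-0.08, against -0.01) and natural killer cells (-0.10, against -0.29). In B cells it was -0.11, against 0.17 over the 34 genes with enough UMIs.

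In spleen CD4 T cells Oas3 was again highest in Y665F, at 21.9 against 14.3 in WT and 13.6 in Y665H (Y665F ratio 1.53, 1.16 to 2.03). Ifi44 was at 5.71 in WT, 1.88 in Y665H and 0.866 in Y665F, and Oas2 at 8.30, 5.98 and 3.25. Both were highest in WT. Ifit3 was at 19.97 in WT and 10.6 and 12.3 in Y665H and Y665F, Ifit1 at 28.8, 18.1 and 23.6, and Rsad2 at 7.39, 2.70 and 4.98. Oasl1 ran from 3.03 to 5.45 and Oas1a from 3.89 to 6.57. In each genotype 2 of 35 were past 2-fold, beside 8.27% of all genes for Y665F and 3.6% for Y665H, and the summed level was 1.03 and 0.965 of WT. In regulatory T cells Ifi27l2a was at 1673 in Y665F and 1516 in Y665H against 1062 in WT. Gbp2 was at 119.7 in Y665F, 73.6 in Y665H and 67.1 in WT, and Gbp7 at 329.5, 254 and 218. These 2 GTPases were thus highest in Y665F regulatory T cells, with ratios of 1.78 (1.37 to 2.35) and 1.51 (1.30 to 1.76). Rsad2 (3.53 to 15.8), Oasl2 (4.94 to 10.6), Oas1a (12.4 to 18.1), Cmpk2 (7.14 to 13.05) and Ifit2 (22.0 to 43.8) rested on few UMIs.

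In spleen B cells the summed level was 1666 in Y665F, 1350 in Y665H and 1285 in WT, a Y665F ratio of 1.30 (1.25 to 1.34). Most of the difference was Ifi27l2a, at 683 against 417 and 419 (ratio 1.63, 1.54 to 1.72). Zbp1, a sensor of Z-form nucleic acid, was at 42.2, 32.5 and 25.7, and Oas3 at 6.42, 4.71 and 3.09. These 3 genes were highest in Y665F. Oasl1 was at 13.1, 13.3 and 8.42, Ifit3 at 4.58, 10.2 and 8.84, and Rsad2 and Oas2 were under 5 in each library. Ifi44 was at 3.36, 2.30 and 0.281, a Y665F ratio of 12.0 with a counting interval of 2.61 to 111. Of 34 genes 3 were past 2-fold in Y665F and 1 in Y665H, beside 6.25% and 3.6% of all genes. In natural killer cells Slfn8 was at 58.9 in Y665F against 109 in WT and 98.4 in Y665H (ratio 0.540, 0.376 to 0.760) and Eif2ak2 (PKR, which stops translation) at 22.4 against 42.0 and 50.2; Isg15, Usp18, Oas3, Cmpk2 and Slfn5 were under 16 in each library, Ifit2 ran from 17.2 to 32.2, and the summed level was 0.872 of WT in Y665F and 1.02 in Y665H.

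The spleen cells that passed the neutrophil gate had the largest difference in summed level among the spleen classes compared. The summed level was 3753 in WT, 3385 in Y665H and 1811 in Y665F, a Y665F ratio of 0.482 (0.453 to 0.514). Oasl2 was at 394, 226 and 73.5, Irf7 at 103, 57.4 and 29.8, Rsad2 at 207, 172 and 60.5, and Slfn5 at 155, 163 and 42.6. Oasl1 was at 35.6, 27.5 and 9.59 and Ifit3b at 38.8, 12.9 and 10.4. All 6 were lowest in Y665F. Bst2 was higher in both mutants (57.3 in Y665F and 75.3 in Y665H against 16.2), as was Eif2ak2 (56.7 and 57.4 against 12.9). Of 33 genes 16 were past 2-fold in Y665F, 13 of them lower, and 4 in Y665H, beside 54.2% and 39.6% of all genes. A gene with UMIs in the mutant and none in WT was counted as over 2-fold higher, which raises these shares and the all-gene median. The gate held 309347 UMIs in its shallowest library, that of WT, and 4038998 in its deepest. The part of counting error in these shares was not tested. Over all genes 17.3% were past 2-fold lower and 36.8% higher in Y665F, with a median log2 ratio of 0.35 against -0.73 over the 33. The gate held 98 cells in WT, 746 in Y665H and 350 in Y665F. Granulocyte-monocyte progenitor markers in it summed to 9.70, 133 and 3612 CPM and basophil and mast cell markers to 0, 57.9 and 3289 in WT, Y665H and Y665F, plasma cell markers to 25.9, 2294 and 933 and monocyte markers to 158, 661 and 211, and the neutrophil markers themselves to 173698, 142365 and 253334, with 9 of 11 above WT and 2 below it in Y665F, Csf3r among the 2. All 5 progenitor markers were above WT in both mutants. The part of those cells in the result was not tested.

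**Figure D4:**
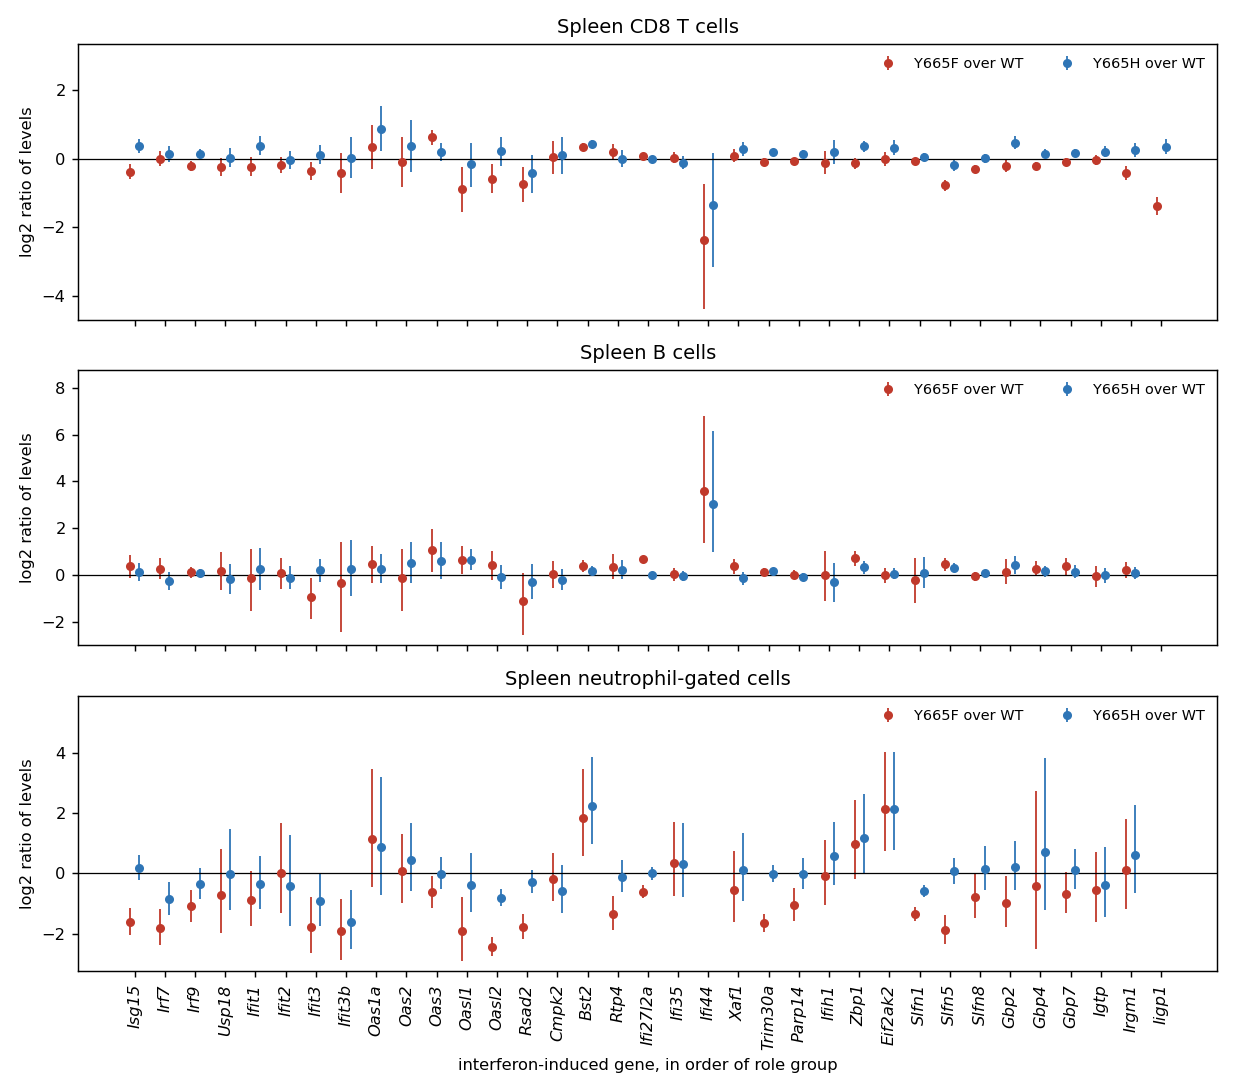
Log2 ratio of the level to WT (y axis) for each of the genes with at least 20 UMIs over the 3 spleen libraries, with Y665F in red and Y665H in blue; bars are exact 95% intervals for counting error and there is 1 library per genotype. In CD8 T cells Iigp1 lies below 0 in Y665F (ratio 0.384) and Oas3 above it (ratio 1.55), and in neutrophil-gated cells most red points lie below 0.

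In BM, cells of the granulocyte-monocyte progenitor (GMP) gate had 10 of 33 genes tested that rose in Y665F against WT, none that fell, and 28 that were positive. Of all 11756 genes 13.8% were called in the same fit, and the median was 0.70 over the 33 against 0.017 over all genes. Iigp1 was at 4.51 and 2.62 in WT, 5.53 and 4.39 in Y665H and 14.4 and 13.8 in Y665F, with a log2 fold change against WT of 1.99 ± 0.31 (adjusted p = 0.0038). Gbp2 was at 6.64 and 5.41, 3.84 and 3.47, and 13.1 and 13.7 (1.11 ± 0.28, adjusted p = 0.022). Both GTPases were thus higher in each Y665F library than in the 4 others.

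Among the OAS genes and effectors, Oas3 was at 3.98 and 1.047 in WT, 1.58 and 2.01 in Y665H and 9.19 and 6.47 in Y665F (1.74 ± 0.44, adjusted p = 0.021). Rsad2 was at 4.25 and 1.22, 3.95 and 1.46, and 8.81 and 8.72 (1.77 ± 0.44, adjusted p = 0.021). Ifi44 was at 9.82 and 4.19, 5.64 and 5.12, and 18.0 and 19.7 (1.47 ± 0.30, adjusted p = 0.0087). The Y665F libraries lay above the other 4 for each, and WT replicate 1 above WT replicate 2. Parp14, an ADP-ribosyltransferase, was at 21.0 and 9.95 in WT and 30.04 and 30.6 in Y665F (0.999 ± 0.26, adjusted p = 0.023), and Ifih1 (MDA5, a sensor of viral RNA) at 11.9 and 4.36 in WT and 17.7 and 18.2 in Y665F (1.20 ± 0.31, adjusted p = 0.024).

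Slfn5 was at 7.70 and 3.49 in WT and 18.3 and 11.5 in Y665F (1.45 ± 0.35, adjusted p = 0.018), and Slfn8 at 18.9 and 8.90 and at 28.0 and 24.6 (0.95 ± 0.28, adjusted p = 0.035). Isg15, the ubiquitin-like modifier, was at 43.0 and 42.7 in WT, 73.0 and 56.7 in Y665H and 114.3 and 72.7 in Y665F (1.07 ± 0.28, adjusted p = 0.025). Here Y665H replicate 1 lay above Y665F replicate 2, so Y665H and Y665F overlapped, and the call was lost without either Y665H library or without Y665F replicate 1. The 5 negative genes did not pass. The largest negative value was that of Gbp4, a GTPase with few UMIs, at 6.37 and 0.349 in WT, 1.47 and 0.183 in Y665H and 0.914 and 0.647 in Y665F (-1.89 ± 0.78, adjusted p = 0.12), where WT replicate 1 was the high library. Irf7 was also lower, at 20.4 and 12.0 in WT, 25.9 and 10.2 in Y665H and 11.4 and 6.97 in Y665F (-0.81 ± 0.37 against WT, adjusted p = 0.15). Ifi35 was at 43.8 and 43.8 in WT, 48.1 and 41.1 in Y665H and 34.2 and 20.4 in Y665F (-0.74 ± 0.28, adjusted p = 0.087).

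**Figure D5:**
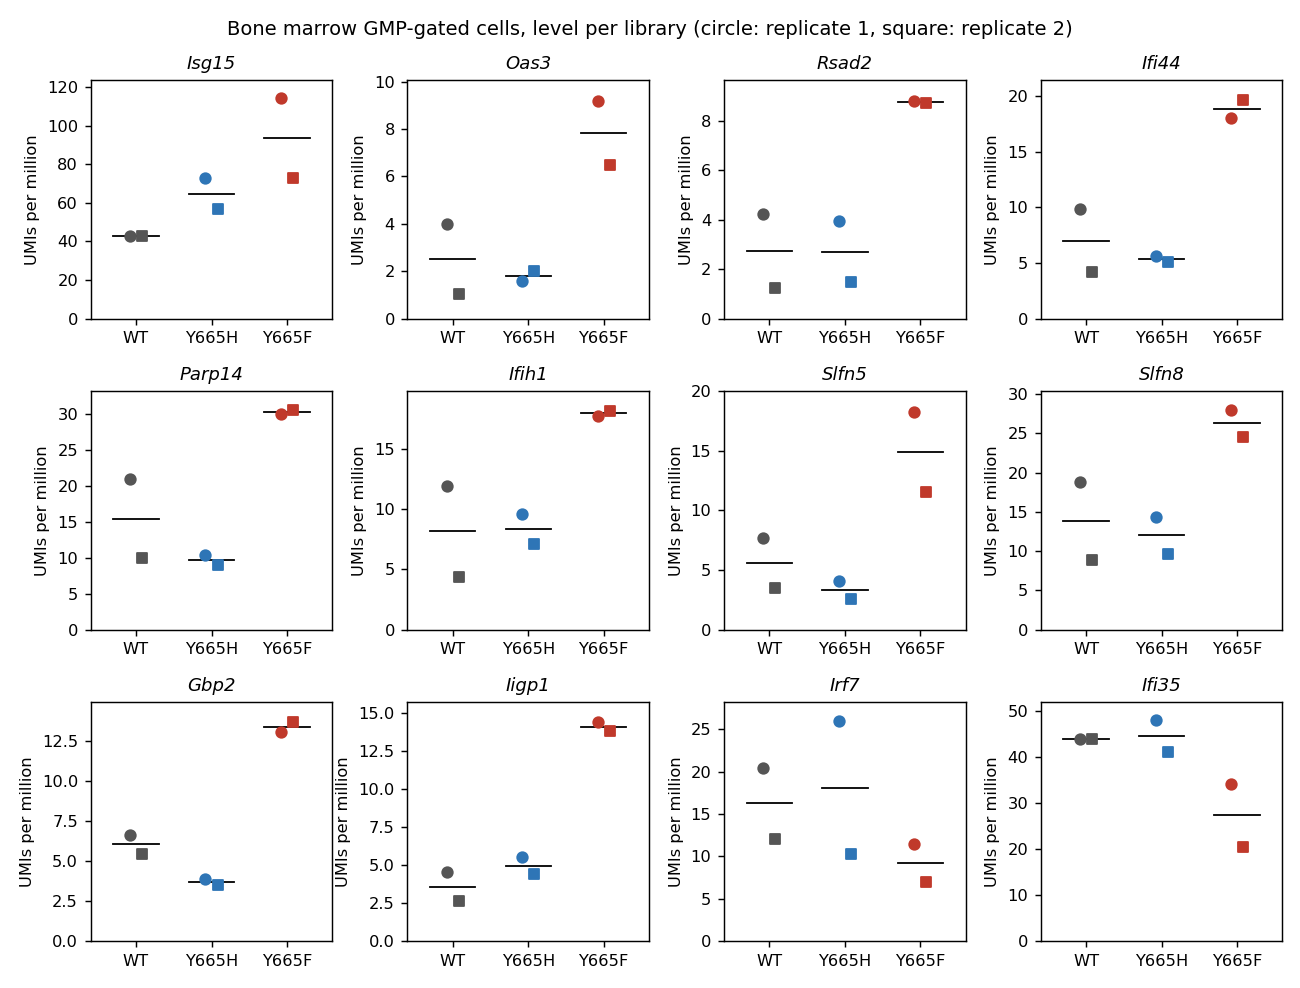
Levels of 12 genes in BM GMP-gated cells, in CPM on the y axis, by genotype on the x axis; circles are replicate 1, squares replicate 2 and lines group means. The first 10 panels are the genes called in Y665F against WT (Iigp1 14.4 and 13.8 in Y665F against 2.62 to 5.53 elsewhere), and in the last 2 panels Ifi35 is lowest in the Y665F libraries, while for Irf7 they overlap Y665H.

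Y665H against WT called none of the 33 (3 at an unadjusted p under 0.05 by edgeR, 0 called by DESeq2), beside 0% of all genes, and its median over the 33 was 0.08. Y665F against Y665H called 15, beside 28.4% of all genes: 13 were higher in Y665F, among them Slfn5 (1.83 ± 0.35), Oas3 (1.84 ± 0.43), Oas2 (1.78 ± 0.59), Gbp2 (1.56 ± 0.29), Igtp (1.07 ± 0.31) and Irf9 (0.85 ± 0.25), and 2 were lower, Irf7 (-1.28 ± 0.36, adjusted p = 0.018) and Ifi35 (-1.01 ± 0.28, adjusted p = 0.017). It shares its Y665F libraries with the comparison against WT, and called 1 gene without Y665H replicate 1, 6 without Y665H replicate 2, 7 without Y665F replicate 2 and 8 without Y665F replicate 1, where 2.31%, 8.63%, 7.75% and 19.4% of all genes were called. Irf9, the DNA-binding part of the type I complex, had 0.74 ± 0.25 against WT (adjusted p = 0.059).

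Without 1 library at a time, 5 to 19 of the 33 were called in Y665F against WT, with 5 without WT replicate 2, 6 without Y665F replicate 1, 7 without Y665F replicate 2 and 19 without WT replicate 1. The share of all genes called moved too, at 7.32%, 10.5%, 2.35% and 27.2% in those 4 fits. Iigp1 and Ifi44 were called in all 6 of those fits. The make-up of the gate also moved with Y665F: neutrophil markers summed to 217 and 253 CPM in Y665F against 32.5 to 75.5 in the other 4 libraries, with 10 of 11 markers above both WT libraries. Stem/MPP markers summed to 215 to 283 in Y665F against 88.1 to 160 elsewhere, and the summed level of the 35 genes was higher in stem/MPP cells of WT (1368 and 911) than in GMP-gated cells (823 and 559). Monocyte markers summed to 138 to 163 in Y665F against 354 to 564 elsewhere, with 2 of 5 below and 1 above both WT libraries, plasmacytoid dendritic cell markers to 15.4 to 21.3 against 34.5 to 54.8, erythroid markers to 227 to 345 against 723 to 1198, and the GMP markers themselves to 3638 to 5752 against 6478 to 8995. Their part in the result was not tested.

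Of 27 pathway genes tested in the GMP gate, 3 rose and 2 fell in Y665F against WT, beside 13.8% of all genes in the same fit. Socs3 rose (1.73 ± 0.37, adjusted p = 0.012), with levels of 2.66 and 2.44 in WT, 3.72 and 5.30 in Y665H and 9.83 and 7.77 in Y665F. Jak2, the kinase of the interferon gamma and GM-CSF receptors, rose (1.11 ± 0.28, adjusted p = 0.020), as did Ddx58 (RIG-I, a sensor of viral RNA; 0.997 ± 0.28, adjusted p = 0.031). The receptor chains Il10rb (-1.27 ± 0.23, adjusted p = 0.0060) and Ifngr2 (-0.98 ± 0.24, adjusted p = 0.018) fell. Ifngr2 was at 48.6 and 40.8 in WT, 42.0 and 28.0 in Y665H and 24.5 and 22.1 in Y665F, so its lowest libraries were those of Y665F. Against Y665H, 6 pathway genes were called, beside 28.4% of all genes: Ddx58 (1.49 ± 0.28), Jak2 (1.46 ± 0.28) and Stat2 (0.85 ± 0.27) were higher in Y665F, and Il10rb (-1.01 ± 0.23), Ifngr2 (-0.90 ± 0.23) and Myd88 (-0.71 ± 0.24) lower. In the comparison with WT, Socs3 was called in all 6 fits that left out a library; Il10rb was lost without Y665F replicate 2, Jak2 and Ifngr2 without WT replicate 2 or Y665F replicate 2, and Ddx58 in every such fit but that without WT replicate 1.

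The stem and multipotent progenitor (stem/MPP) gate had 15 genes deep enough to test, and edgeR called none in Y665F against WT (2 at an unadjusted p under 0.05; 1.32% of all genes), in Y665H against WT (1; 0.0216%) or in Y665F against Y665H (3; 6.28%), and DESeq2 called 0 in each. The pathway gene Jak2 was higher in Y665F than in Y665H (2.51 ± 0.76, adjusted p = 0.037), in the fit that called 6.28% of all genes. The summed level was 1368 and 911 in WT, 1353 and 902 in Y665H and 1302 and 1024 in Y665F, with replicate 1 above replicate 2 in every genotype. The monocyte gate had 7 testable genes, and edgeR called none in Y665F against WT (2 at an unadjusted p under 0.05; 0.345% of all genes), Y665H against WT (1; 0%) or Y665F against Y665H (1; 0.345%), with 0 by DESeq2. Neutrophil-gated BM cells were not tested because 2 libraries held under 20 of them. The Y665F effect in the stem/MPP gate differed from that in the GMP gate for 1 gene of 33, Ifi44 (difference in log2 fold change -1.90 ± 0.43, adjusted p = 0.0027), beside 1.04% of all genes. Ifi44 was at 91.9 and 7.26 in stem/MPP cells of WT, 39.0 and 22.8 in Y665H and 31.04 and 29.3 in Y665F. The high WT value came from WT replicate 1, and without that library the difference was 0.17; it also missed the threshold without Y665F replicate 2 (adjusted p = 0.066). Over the 33 genes 23 differences were negative, while 60.1% of all genes were positive.

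Erythroid-gated BM cells, a class added after the data had been seen, had 14 of 31 genes called in Y665F against WT, 13 higher and Ifi35 lower (-0.77 ± 0.27, adjusted p = 0.045), beside 25.5% of all genes. With replicate number as a block, which pairs the libraries in this class, 21 were called, beside 34% of all genes. Iigp1 was at 0.982 and 0.250 in WT, 1.75 and 1.30 in Y665H and 3.62 and 13.8 in Y665F (3.44 ± 0.66, adjusted p = 0.0022). Oas2 was at 0.421 and 0, 0.565 and 0.434, and 2.57 and 2.37 (3.39 ± 0.88, adjusted p = 0.011). Both were highest in the Y665F libraries, and Iigp1 was far higher in replicate 2 than in replicate 1 of Y665F. The Oas2 levels rested on few UMIs. Ifi44 (2.69 ± 0.48), Slfn5 (2.85 ± 0.80), Gbp2 (2.29 ± 0.53), Ifi27l2a (2.02 ± 0.43), Oas3 (1.91 ± 0.51), Ifit1 (1.69 ± 0.57), Slfn8 (1.37 ± 0.32), Parp14 (1.33 ± 0.30), Trim30a (0.89 ± 0.25), Irf9 (0.88 ± 0.25) and Ifih1 (0.86 ± 0.30) were the others. Y665H against WT called none (2 at an unadjusted p under 0.05, 0 by DESeq2; 0% of all genes) and Y665F against Y665H 14 (31.1% of all genes), 12 higher and 2 lower (Irf7, -1.38 ± 0.44, adjusted p = 0.024, and Ifi35, -1.08 ± 0.27, adjusted p = 0.0074). The 12 were Gbp2, Ifi44, Oas2, Oas3, Trim30a, Igtp, Slfn5, Slfn8, Ifi27l2a, Irf9, Parp14 and Iigp1, with log2 fold changes of 0.78 (Irf9) to 2.10 (Gbp2). Without Y665F replicate 2 there were 2 called (9.31% of all genes) and without Y665H replicate 1 there were 3 (6.3%). Without 1 library at a time 5 to 16 were called against WT, 5 without Y665F replicate 2 (5.64% of all genes) and 7 without WT replicate 2 (10.8%). Of 24 pathway genes 7 were called against WT, beside 25.5% of all genes in that fit. The sensors and adaptors Tmem173 (STING, 2.25 ± 0.67), Ddx58 (1.46 ± 0.35) and Cgas (0.87 ± 0.31) rose. The regulators Irf8 (1.69 ± 0.57) and Irf1 (1.17 ± 0.36) and the inhibitor Socs1 (1.90 ± 0.48) also rose, and the phosphatase Ptpn2 fell (-0.65 ± 0.21). Against Y665H, 5 of these were called, Ddx58, Irf8, Socs1 and Tmem173 higher and Ptpn2 lower, beside 31.1% of all genes. In the Y665F libraries the erythroid markers summed to 1702 to 3134 against 7081 to 10056 in the others, with 4 of 6 markers below and 1 (Rhag) above both WT libraries and most of the gap in Car1 (2595 and 1106 against 6401 to 9452). GMP markers summed to 248 to 521 against 166 to 205 and neutrophil markers to 70.3 to 91.2 against 6.37 to 13.7, with 8 of 11 neutrophil markers above both WT libraries. Stem/MPP markers summed to 76.1 to 152 against 61.1 to 73.4, and monocyte markers to 13.9 to 38.9 against 17.4 to 21.3. The part of these other cell types in the result was not tested.

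Replicate number was itself compared in BM, as an addition, in the fit that holds genotype fixed. In the GMP gate 31 of 33 genes were positive for replicate 1 over replicate 2 (median 0.38), and edgeR called none (7 at an unadjusted p under 0.05; 0.102% of all genes; DESeq2 was not run). In stem/MPP cells 14 of 15 were positive and none was called (4 at an unadjusted p under 0.05; 0.173%), and in monocytes 6 of 7 and none (1; 0.103%). In erythroid cells 23 of 31 were positive and 4 rose: Irf7 (1.19), Oas1a (0.999), Irgm1 (0.78) and Rtp4 (0.76), beside 1.79% of all genes. Of the pathway genes Irf8 alone was called there, and was lower in replicate 1 (-1.501 ± 0.27, adjusted p = 0.00071). The summed level was higher in replicate 1 in 19 of 21 pairs of class and genotype, with ratios of 0.857 to 2.46 and a median of 1.42. The 21 pairs come from the same 6 libraries, so they are not independent. The counts of positive genes are not set against that over all genes. Replicate 1 is the library with Xist in each genotype, so sex, sample and preparation cannot be told apart.

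Across the tissues, Oas3 was above WT in Y665F in LN CD8 T (1.28 ± 0.21 on the log2 scale, homo), spleen CD8 T, CD4 T and B cells (ratios 1.55, 1.53 and 2.08), BM GMP (1.74 ± 0.44) and erythroid cells (1.91 ± 0.51). In LN B cells homo overlapped WT (14.7 and 3.19 in WT against 6.15 and 11.02 CPM in homo, log2 fold change 0.21 ± 0.78, adjusted p = 0.98). It was below WT in Y665F in 2 spleen gates: in spleen neutrophil-gated cells 113 in WT against 73.5 in Y665F, and in spleen natural killer cells 4.39 against 2.80. The natural killer values rested on few UMIs, so their direction is uncertain. Iigp1 had opposite directions, lower than WT in CD8 T cells of LN (-1.30 ± 0.41) and spleen (ratio 0.384) and higher in BM GMP (1.99 ± 0.31) and erythroid cells. Gbp2 likewise fell in LN CD8 T cells (-0.74 ± 0.18) and rose in the BM GMP gate (1.11 ± 0.28). Irf7 rose in LN CD8 T cells of homo mice (0.65 ± 0.15), and had lower levels than WT in Y665F in the BM GMP (-0.81 ± 0.37) and spleen neutrophil gates. Both Y665F libraries were also below both WT libraries for Irf7 in the stem/MPP, lymphoid progenitor, monocyte, erythroid, megakaryocyte and B gates of BM. In stem/MPP cells it was at 16.9 and 10.5 against 55.2 and 29.0 CPM, and in B cells at 9.65 and 7.76 against 68.9 and 18.4. In monocytes it was at 17.2 and 7.40 against 33.6 and 17.6, so the groups barely separated there. Some of these levels, among them those of the monocyte and megakaryocyte gates, rested on few UMIs. The gates come from the same libraries, so they are not independent, and Irf7 was named after its values were seen. The share of all genes that separated in this way was not counted. The differences between tissues were not tested, since no source states which kit made which libraries. In Y665H against WT none of the genes tested (33 in GMP, 31 in erythroid, 15 in stem/MPP and 7 in monocyte gates) was called, apart from 1 each in the GMP and monocyte gates when WT replicate 2 was left out, where 6.41% and 4.87% of all genes were called.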

How the data were processed

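The deposited files hold raw UMI counts for every gene in every barcode. The authors counted with Cell Ranger, version 5.0.0 in LN headers and 6.0.0 in those of the other tissues (the labels' notes name Cell Ranger 5.0, Seurat 4.0 and mm10), without normalization. Labels give a 3′ kit and methods a 5′ kit. Expression libraries (16) were used, and T cell receptor libraries were not used here. Cells needed 200 genes and at most 10% mitochondrial UMIs. The most likely doublets were removed at 0.8% per 1000 barcodes. A class needed 2 of its markers (3 in a stricter gate) and 20 cells in every library. UMIs were summed per library and class. LN and BM sums were tested with edgeR 4.0.16 (R 4.3.3; TMM, filterByExpr, quasi-likelihood, all genotypes of a tissue in 1 model), two-sided, with Benjamini-Hochberg adjusted p over all genes tested and a threshold of 0.05; the SE of a log2 fold change was taken from it and the square root of its F statistic. DESeq2 1.42.0 was an alternative, as were RLE scaling, no filter, a replicate block, doublets kept, the stricter gate and leaving out libraries. Spleen ratios have exact 95% intervals (scipy 1.17.1), which cover counting error only. The scripts were tested on simulated counts. Counts of genes at an unadjusted p under 0.05 are given without the share of all genes at that threshold. The shares of all genes called that stand beside them are at the adjusted threshold. The members and lists were chosen with earlier results of these data known. Named genes were those called, and in spleen the 8 largest ratios per class among genes with 20 UMIs; genes of each role and the genes set side by side across tissues were named beside them after their values were seen. In LN no pair of same-numbered groups correlated above 0.1. In the GMP, monocyte and stem/MPP gates 2 of 3 pairs did, so the numbers were not taken to pair them. The main fits of those gates thus hold no term for replicate number or sex. In the erythroid gate every pair correlated above 0.1 (0.178 to 0.363), so its block result stands beside its main one. A gene of the pathway list is not reported here.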

Additional observations from a re-analysis of the deposited data

Results flagged for a closer look

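The effect of Y665F on Ifi44, an interferon-induced antiviral effector, differed between the stem/MPP and GMP gates of bone marrow. The test of the difference itself gave -1.90 on the log2 scale (edgeR adjusted p = 0.0027), the stem/MPP effect being the lower. The stem/MPP level of WT replicate 1 rested on 25 UMIs and that of WT replicate 2 on 2, and the difference was 0.17 without WT replicate 1.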

How the results depend on the processing

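Counts of interferon-induced genes called moved by over 1.5 times as follows, each with the share of all genes called in the same fit, and the cause was not tested. With no filter on low counts, 16 were called in GMP cells for Y665F against WT (11.9%), 1 in stem/MPP cells for Y665F against Y665H (1.42%), 7 in LN B cells of het (1.11%) and 4 of homo (0.59%), and 1 in LN CD8 T cells of het (0.956%) and 9 of homo (1.61%). With the stricter gate the GMP count was 16 (19.6%) and that of LN B cells of het 1 (1.04%). DESeq2 called 8 in erythroid cells for Y665F against Y665H (23.4%), 0 in LN CD4 T cells of homo (0.0302%) and 1 in LN CD8 T cells of homo (0.493%). With both shallow LN libraries left out, homo counts were 3 in CD4 T (0.432%) and 1 in CD8 T cells (0.865%). With doublets kept, 0 were called in CD4 T cells of homo (0.407%), and with a log2 fold change over 1 required, 1 in CD8 T cells of homo (1.09%). With the replicate block, 1 was called in monocytes for Y665F against Y665H (1.79%) and 21 in erythroid cells against WT (34%). The Ifi44 difference between stem/MPP and GMP gates ran from -2.39 without BM WT replicate 2 to 0.17 without BM WT replicate 1, where it reversed.

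Leaving out 1 library at a time gave ranges of 5 to 19 (GMP, Y665F against WT; 2.35% to 27.2% of all genes), 1 to 17 (Y665F against Y665H; 2.31% to 42%) and 0 to 1 (Y665H against WT; 0% to 6.41%). In erythroid cells the ranges were 5 to 16 (5.64% to 28.3%), 2 to 12 (6.3% to 31.9%) and 0 to 0 (0% to 0.0181%), in monocytes 0 to 1 for each comparison (0.183% to 4.44%, 0.137% to 7.78% and 0% to 4.87%), and in stem/MPP cells 0 to 0 (0.154% to 4.21%), 0 to 1 (0.366% to 10.4%) and 0 to 0 (0% to 1.17%). In LN they were 0 to 18 (B, het; 0.012% to 1.39%), 0 to 10 (B, homo; 0% to 0.531%), 0 to 1 (CD4 T, het; 0.0611% to 0.654%), 0 to 4 (CD4 T, homo; 0.0359% to 0.738%), 0 to 1 (CD8 T, het; 0.0424% to 0.838%) and 0 to 8 (CD8 T, homo; 0.189% to 1.93%). The differences between classes gave 0 to 1 in BM (0.152% to 1.35%) and 0 to 0 in LN (0.0107% to 0.18%). Of all alternative counts, 211 stayed within 1.5 times and 50 did not. Counts of 0 that stayed at 0 are among the 211, so this tally does not measure how stable the other counts were. A fit that leaves 1 library in a group assumes that it varies like the other groups. The BM neutrophil gate had too few cells for any alternative.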
